A study of Moricandia arvensis and Moricandia suffruticosa and Moricandia moricandioides with 78 samples.

Results

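The genes of galactinol and raffinose metabolism were followed through drought and rewatering in the leaves of 3 Moricandia species. The set holds 9 of the 33602 Arabidopsis features on which the reads were counted, chosen by identifier. It comprises the galactinol synthases GolS1 (AT2G47180), GolS2 (AT1G56600), GolS3 (AT1G09350) and GolS4 (AT1G60470), the raffinose synthase RS5 (AT5G40390), the stachyose synthase STS (AT4G01970), and the related family members DIN10 (AT5G20250), SIP2 (AT3G57520) and SIP1 (AT1G55740). Of these, 8 passed the filter on low counts in at least 1 of 19 comparisons and STS passed it in none.

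Galactinol synthases join UDP-galactose to myo-inositol, and the galactinol so formed is the galactosyl donor from which raffinose synthase makes raffinose out of sucrose. Stachyose synthase carries the chain a step further, and alpha-galactosidases take it down again. Raffinose family sugars are known from Arabidopsis and other plants as compatible solutes and transport sugars that accumulate in leaves under drought, heat and cold, with GolS1 and GolS2 known there as genes induced by drought and heat and GolS3 as a gene induced by cold. RS5 is the main raffinose synthase of Arabidopsis leaves, DIN10 was first described as a dark-inducible gene, and the SIP genes were named after seed imbibition proteins.

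The series holds 78 RNA-seq libraries of mature leaves, 47 from well-watered controls and 31 from plants that had been droughted, with 1 seed line for each species. Moricandia moricandioides (Mmo) is a C3 species, and M. arvensis (Mav) and M. suffruticosa (Msu) are C2 species, which recapture photorespired CO2 in the bundle sheath. Water was withheld at T0, when stomatal conductance (Gs) was taken as 100%, and leaves were collected at 50% of that Gs (T1), at 10% (T2) and after rewatering (RW), with watered controls at each point. Leaves for T0 to T2 were taken at midday, whereas those for RW were taken when soil water in both groups had become equal, so in rewatered plants against droughted plants of T2 the effects of rewatering, sampling point and hour cannot be told apart. The RW controls were collected at the same point as the rewatered plants.

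Mmo had 4 control libraries at T0, 4 controls and 3 droughted libraries at T1, 2 and 3 at T2, and 4 controls and 4 rewatered libraries at RW. For Mav these numbers were 5 at T0, 4 and 1 at T1, 5 and 5 at T2, and 5 and 4 at RW. For Msu they were 4 at T0, 4 and 3 at T1, 3 and 4 at T2, and 3 and 4 at RW. The single droughted Mav library at T1 entered no test. All species were counted against Arabidopsis coding sequences. A difference in transcript level between species, a difference in sequence and a difference in gene copies therefore cannot be told apart. The paper describes Msu as tetraploid and Mmo and Mav as diploid. It kept its quantitative comparison of species to those diploids, because ploidy can affect quantification. The comparisons with Msu given here make no allowance for ploidy. Similar family members such as the galactinol synthases may share reads. T0 controls were sequenced in lane 5 for Mmo, lanes 1 and 7 for Mav and lane 3 for Msu. Droughted plants of T2 were in lane 6 for Mmo and lanes 2 and 7 for Mav. In these comparisons species and lane cannot be told apart either. Rewatered plants were in lane 7 for Mmo and lanes 2 and 7 for Mav.

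The total count per library was 22346621 to 41675513. Within groups, 20 of 116 pairs of libraries differed in the typical gene by little more than counting noise. Their noise ratio was 1.62 to 3.14, while 6 pairs were at 6.43 to 8.63 and all others at 16.6 or more. The noise ratio is the median over genes of the squared count difference over its sampling variance, scaled by the median under sampling alone. Genes with few counts were left out of it, and a few strongly differing genes would not raise it. Control M6c of Mmo at T1 was also near controls M21c and M24c of RW (8.16 and 8.45). The labels call these libraries separate biological replicates, but such pairs leave only 2 distinct profiles in groups such as the rewatered plants of each species and the droughted Mmo plants at T1 and T2. P-values measure the spread between libraries, which may in part be technical, and results are given with these libraries summed where that changed a call. In Msu at T2, controls S33c and S36c and droughted S5s and S8s were as close to each other (ratios of 1.8 to 2.18) as libraries of the same group. Those 4 and the 3 Msu controls of RW (S5c, S6c, S7c) were nearer to the mean of Mmo T0 leaves (r = 0.681 to 0.708 over 1992 genes) than to that of Msu T0 leaves (0.597 to 0.613), against 71 libraries that were nearest to their own species. Mmo T0 libraries themselves had r of 0.916 to 0.968 with that Mmo mean. Some later Mmo libraries were lower, with M6c, M21c, M24c and M25s at 0.625, 0.634, 0.633 and 0.686. Each was still nearest to Mmo, with r of 0.544 to 0.562 for the Mav mean and 0.546 to 0.56 for the Msu mean. GolS4 in S33c, S36c, S5s and S8s was at 1.28 to 1.85 CPM, above every Mmo library (at most 0.454 CPM), and in S5c, S6c and S7c it was at 0.290 to 0.411 CPM. The comparisons within Msu at T2 and RW therefore rest on libraries whose labels are in doubt. Summed markers of mesophyll were at 6949 to 38290 counts scaled for library size (CPM) over all libraries.

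In well-watered leaves at T0 the most abundant member per transcript length was DIN10 in all 3 species. Its median was 96.5 TPM (transcripts scaled for gene length and library size) in Mmo, 162.8 in Mav and 130.2 in Msu. SIP2 followed with medians of 80.4, 35.1 and 56.6 TPM, and its range overlapped that of DIN10 in Mmo but not in Mav or Msu. RS5 was at 36.3, 21.8 and 23 TPM. The galactinol synthases differed in their order between the species. In Mmo it was GolS1 (32.5 TPM), GolS3 (20.3), GolS2 (4.25) and GolS4 (0.247). In Mav it was GolS3 (7.85), GolS4 (7.04), GolS2 (0.966) and GolS1 (0.241), and in Msu GolS3 (27.4), GolS2 (26.9), GolS4 (15.0) and GolS1 (3.01). Neighbours in these orders overlapped, except GolS2 over GolS4 in Mmo. SIP1 stood at 1.26, 2.08 and 4.54 TPM. STS, which would make stachyose, had 102 counts in all 78 libraries together and was at 0 in 56 of them, with a maximum of 0.458 CPM.

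**Figure D1:**
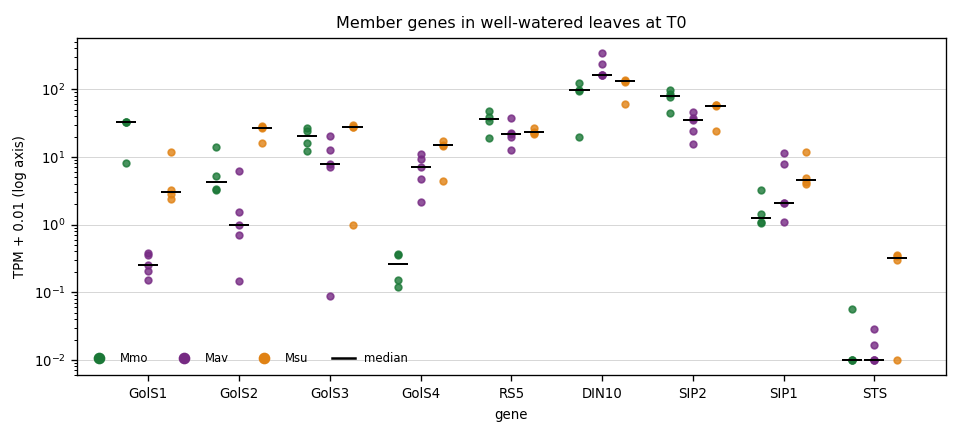
TPM of the 9 member genes in each T0 control library (log axis, 0.01 added so that zeros can be drawn); points are libraries of Mmo (4), Mav (5) and Msu (4) and bars are medians. DIN10 and SIP2 lie highest, STS lies at or near 0, GolS1 is highest in Mmo and GolS4 lowest there.

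Between Mmo and Mav at T0, GolS1 was higher and GolS4 lower in Mmo. GolS1 was at 9.00, 35.1, 35.7 and 37.3 CPM in the Mmo libraries and at 0.202, 0.215, 0.273, 0.352 and 0.416 CPM in those of Mav. The groups were far apart, with a log2 fold change of 6.63 ± 0.47 (SE; adjusted p = 6.8e-06, edgeR quasi-likelihood test with Benjamini-Hochberg adjustment, as for every adjusted p here unless another tool is named). GolS4 was at 0.0456, 0.196, 0.425 and 0.447 CPM in Mmo and at 2.50, 5.15, 8.61, 12.4 and 12.6 CPM in Mav. No library of one species reached the other, and the log2 fold change was -4.83 ± 0.67 (adjusted p = 0.00028). GolS4 stayed near the limit of detection in Mmo throughout, with 128 counts over its 24 libraries and never above 0.454 CPM, so folds against it rest on few reads. SIP2 was also called higher in Mmo, by 1.22 ± 0.30 on the log2 scale (42.3, 55.4, 60.6 and 72.3 against 11.9, 19.2, 27.5, 29.9 and 37 CPM; adjusted p = 0.0072). This call was lost without any 1 of A1, A46, A48, M1c, M3s or M4s (adjusted p up to 0.022) and with libraries of a noise ratio under 4 summed (1.22, adjusted p = 0.017), whereas both GolS calls held in each of 19 alternatives. DIN10 was at 18 to 91.6 CPM in Mmo and at 137 to 256 in Mav, with a log2 fold change of -1.45 ± 0.40 that missed the threshold of 0.01 (adjusted p = 0.014) and passed it without M12c (log2 fold change -1.15). Thus 3 of 8 members tested were called, against 24.1% of all genes tested, with a median log2 fold change over the members of 0.82 against 0.01 over all genes.

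Msu at T0 had GolS1 between the other species and GolS4 above Mmo. GolS1 was at 2.71, 3.23, 3.52 and 12.7 CPM in Msu, above all Mav libraries and, except for S42 against M1c, below those of Mmo. It was lower in Mav than in Msu by a log2 fold change of -4.22 ± 0.53 (adjusted p = 0.00072). It was higher in Mmo than in Msu by 2.42 ± 0.60 (adjusted p = 0.0089), a call lost without any 1 of S38, S39, S43, M3s, M4s or M12c (adjusted p up to 0.030) and with libraries of a noise ratio under 4 summed (1.79, adjusted p = 0.15). GolS2 was at 15.9, 26.6, 27.6 and 28.1 CPM in Msu against 0.119, 0.789, 0.976, 1.82 and 6.11 in Mav. The 5 Mav libraries were all lower (log2 fold change -3.65 ± 0.76, adjusted p = 0.0076), but the call was lost without any 1 of A1, A46, A48, S38, S39 or S43 (adjusted p up to 0.024) and with near-identical libraries summed (-3.50, adjusted p = 0.083). Against Mmo (3.40, 3.66, 6.15 and 15.4 CPM), GolS2 of Msu was not called, with a log2 fold change for Mmo over Msu of -1.77 ± 0.48 (adjusted p = 0.013). Without M1c that difference was -2.44 and passed the threshold. GolS4 was at 5.09, 17.2, 17.6 and 20.1 CPM in Msu, far above Mmo (log2 fold change -5.69 ± 0.62, adjusted p = 0.00011). SIP1 in Mmo against Msu differed by -1.29 ± 0.57 (adjusted p = 0.091), and by -2.10 without M12c, when it was called. In these comparisons 2 of 8 members were called for Mmo against Msu (26.1% of all genes) and 2 of 8 for Mav against Msu (7.94% of all genes). With libraries of a noise ratio under 4 summed, 1 member was called in each, with 4.51% and 0.414% of all genes.

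**Figure D2:**
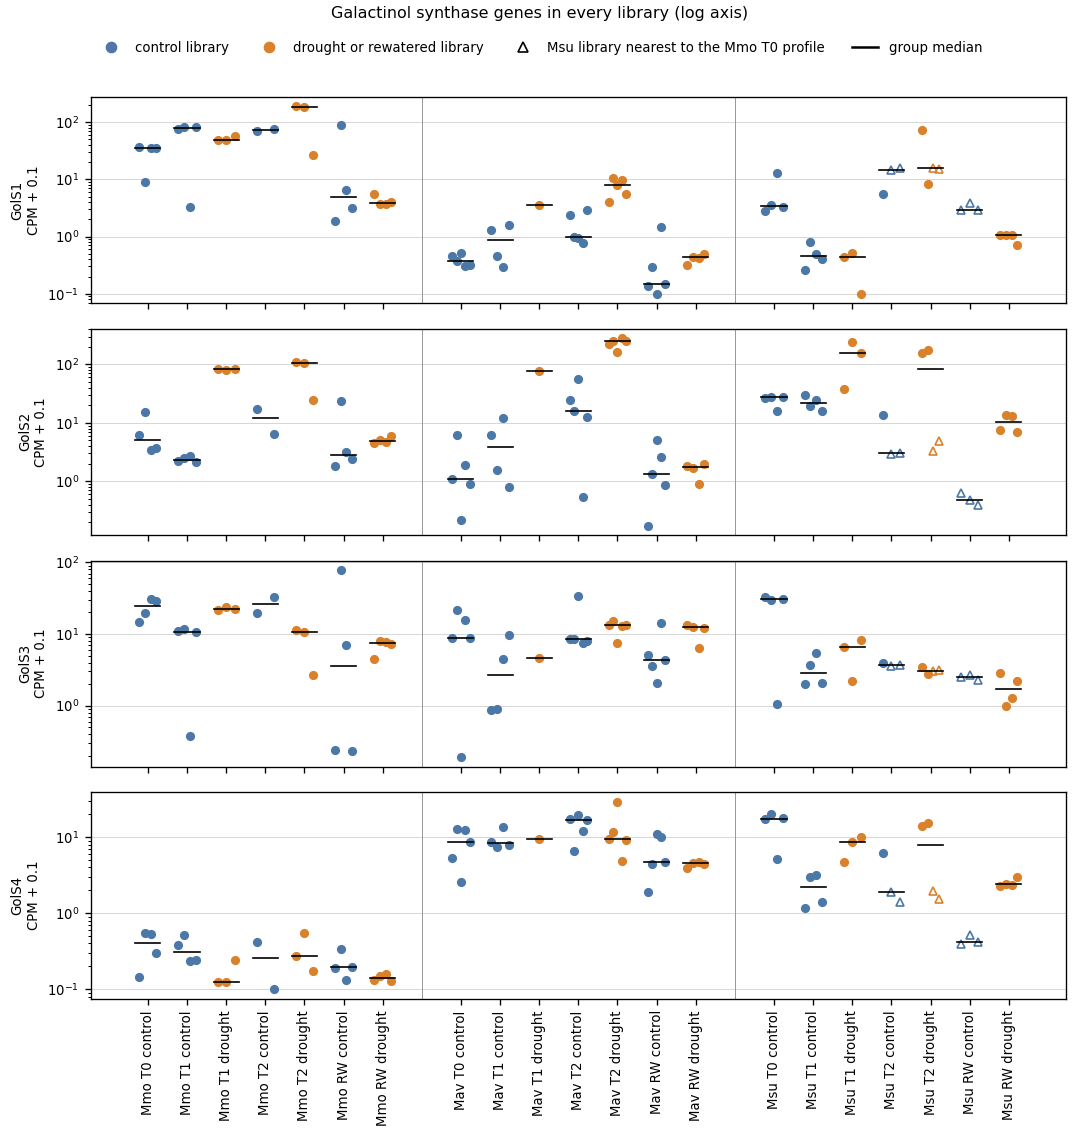
CPM of GolS1 to GolS4 in every library by species, sampling point and treatment (log axes, 0.1 added); blue circles are control libraries, orange circles droughted or rewatered ones, open triangles the 7 Msu libraries with a profile nearest to Mmo, and bars group medians. GolS2 rises in the droughted groups at T1 and T2 outside the triangles, GolS1 is highest in droughted Mmo at T2, and GolS4 stays at or below 0.454 CPM in Mmo.

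At moderate drought (T1) GolS2 rose and SIP1 fell in Mmo. The 4 controls were at 2.07, 2.11, 2.36 and 2.56 CPM and the 3 droughted libraries at 81.2, 82.6 and 84.7 CPM. The increase was 35.9-fold, a log2 fold change of 5.17 ± 0.12 (adjusted p = 6.9e-06). GolS1, by contrast, was at 48.8, 49.6 and 57.8 CPM under drought, among controls at 3.24, 74.5, 80.7 and 80.7 CPM, and was not called (log2 fold change -0.21 ± 0.81). SIP1 was at 5.11, 6.14, 7.21 and 8.44 CPM in the controls and was nearly undetected under drought, with 0, 1 and 3 counts against 756 over the controls. The ratio of the summed counts was 0.0061 (95% exact counting interval 0.00166 to 0.0157), and SIP1 was called lower (adjusted p = 0.00018). RS5 was higher in all 3 droughted libraries (33.9, 37.7 and 38.4 against 13.2, 15.8, 17.9 and 25.8 CPM), but its log2 fold change of 0.99 ± 0.23 fell short of the threshold of 1. Control M6c stood apart in GolS1 (3.24 CPM) and GolS3 (0.274 CPM). Without it GolS3 (log2 fold change 1.01) and RS5 (1.203) were called higher as well, and without M8s RS5 was (1.05). Hence 2 of 7 members tested were called, against 17.8% of all genes tested (median log2 fold change of 0.07 over the members and -0.02 over all genes). Both calls were lost only where libraries of a noise ratio under 10 were summed, which left 1 droughted profile and called 0 of 22324 genes.

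In Msu at T1 the same gene had the largest difference of the galactinol synthases, but no member was called. GolS2 was at 15.9, 19, 24.9 and 29.6 CPM in the controls and at 37.3, 155 and 245 CPM under drought. All droughted libraries were higher, with a log2 fold change of 2.74 ± 0.54 (adjusted p = 0.067). Without S10s it was 3.18 and called, with 2.61% of all genes. GolS4 was at 1.08 to 3.09 CPM in the controls and 4.58 to 9.82 under drought (log2 fold change 1.90 ± 0.48, adjusted p = 0.10). SIP2 reached 1382 and 2178 CPM in droughted S15s and S13s but 169 in S10s, within the control range of 28.5 to 426 CPM (log2 fold change 2.82 ± 1.05). edgeR called 0.168% of all genes in this comparison. Of the 8 members, 4 had an unadjusted p under 0.05, as had 3190 of all 19657 genes tested. DESeq2 called 2 members (GolS2 and GolS4, both higher) with 6.69% of all genes. limma called no member, with 0.392% of all genes on log2(TPM + 1) and 0.626% on log2(TPM + 0.1). The droughted Mav library at T1 had GolS2 at 76.2 CPM, above its 4 controls at 0.687, 1.46, 6.15 and 11.8 CPM.

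The moderate drought responses of Mmo and Msu were compared through their interaction, in which 3 of 8 members were called against 6.1% of all genes. The increase of GolS2 was larger in Mmo by 2.48 ± 0.61 on the log2 scale (adjusted p = 0.028), while the change of GolS4 was lower in Mmo by 3.76 ± 0.88 (adjusted p = 0.024) and that of SIP1 lower by 7.40 ± 1.21 (adjusted p = 0.0037). GolS4 in droughted Mmo had only 1, 1 and 6 counts. The call of GolS2 was lost without any 1 of S18c, M5c, M9c, M10c, M7s, M8s or M12s (adjusted p up to 0.073) and that of GolS4 without M5c, M7s or M12s (adjusted p up to 0.075). SIP2 differed by -3.29 ± 1.19 and was called without S10s (-3.81) and by DESeq2 (-3.33), with 7.35% and 11% of all genes. With libraries of a noise ratio under 4 summed SIP1 was the 1 call left, with 1.76% of all genes called.

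At severe drought (T2) in Mav, GolS1, GolS2 and SIP2 rose. GolS2 was at 0.436, 12.6, 16, 24.4 and 56.8 CPM in the controls and at 163, 225, 249, 250 and 282 CPM under drought. The lowest droughted library lay above the highest control, with a 10.6-fold difference (log2 fold change 3.40 ± 0.80, adjusted p = 0.0054). GolS1 was at 0.668, 0.842, 0.891, 2.30 and 2.76 CPM in the controls and at 3.92, 5.38, 7.98, 9.72 and 10.6 CPM under drought, a log2 fold change of 2.33 ± 0.47 (adjusted p = 0.0020). SIP2, described in Arabidopsis as an alpha-galactosidase acting on raffinose, was at 1.75, 21, 25.1, 29.6 and 33 CPM in the controls and 124, 132, 226, 334 and 394 CPM under drought. Its log2 fold change was 3.46 ± 0.63 (adjusted p = 0.0011). These 3 calls, of 8 members tested and against 28.2% of all genes, held in all 21 alternatives. GolS3 (7.32 to 33.6 against 7.47 to 15.0 CPM), GolS4 (6.38 to 19.5 against 4.73 to 29.1 CPM) and RS5 (28.1 to 61.6 against 22.3 to 50.8 CPM) overlapped between controls and droughted plants, with log2 fold changes of -0.09, -0.18 and -0.37. DIN10 was at 15.6, 22.5, 37.2, 73.9 and 144 CPM in the controls and at 13.1, 17.7, 19, 32 and 42.7 CPM under drought (log2 fold change -1.23 ± 0.56, adjusted p = 0.10). Without A16c its log2 fold change was -1.46 and it was called, and against the T0 controls (137 to 256 CPM) it was -2.79 and called, with 33.2% of all genes. The median log2 fold change over the members was -0.14, against -0.01 over all genes.

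In Mmo at T2 droughted library M20s stood apart from M17s and M19s, and no member was called. GolS2 was at 6.33 and 17.2 CPM in the 2 controls and at 24.6, 107 and 111 CPM under drought, with all droughted libraries higher (log2 fold change 2.76 ± 0.82, adjusted p = 0.12). GolS1 was at 70.6 and 76.7 CPM in the controls and at 188 and 190 CPM in droughted M19s and M17s but 26.4 CPM in M20s. SIP2 (37.3 and 42.2 against 94.7, 96.9 and 325 CPM) and DIN10 (4.26 and 14.2 against 33.9, 34.7 and 187 CPM) were highest in M20s. Their log2 fold changes were 2.11 ± 0.65 and 3.19 ± 1.06 (adjusted p = 0.13 and 0.15). GolS3 was lower in all droughted libraries (2.62, 10.6 and 11.3 against 19.6 and 33 CPM). Without M20s, GolS1 (log2 fold change 1.35), GolS2 (3.19) and SIP2 (1.26) were called higher and GolS3 lower (-1.28), with 12.9% of all genes. M17s and M19s, however, had a noise ratio of 2.04. edgeR called 4.49% of all genes and none of the 8 members. An unadjusted p under 0.05 was found for 4 members and for 4827 of all 20497 genes tested. DESeq2 called 4 members (GolS2, DIN10 and SIP2 higher, GolS3 lower) with 12.4% of all genes. limma called no member, with 3.61% of all genes on log2(TPM + 1) and 4.1% on log2(TPM + 0.1). Against the 4 Mmo T0 controls, GolS2 (log2 fold change 3.50) and SIP2 (1.57) were called higher, with 12.7% of all genes called.

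The T2 responses of Mmo and Mav differed in DIN10, the 1 member of 8 called for the interaction against 5.19% of all genes. DIN10 was higher under drought in all 3 Mmo libraries and lower on average in Mav, a difference of 4.42 ± 1.21 on the log2 scale (adjusted p = 0.047). The call was lost when any 1 of 12 of the 15 libraries was left out (adjusted p up to 0.29), namely A9c, A15c, A24c, A28s, A35s, A39s, A44s, M14c, M16c, M17s, M19s and M20s. It was also lost with libraries of a noise ratio under 4 summed (4.70, adjusted p = 0.082). GolS3 differed by -1.62 ± 0.80 and was called without A22c (-2.32). With the T0 controls of both species, DIN10 (3.21), SIP1 (3.10), GolS1 (-2.45) and GolS2 (-3.41) were called, with 20% of all genes. With the T2 controls the difference for GolS2 was -0.65 ± 1.24.

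Droughted Mmo and Mav leaves at T2 differed in GolS1 and GolS4, in the same directions as at T0. GolS1 was higher in Mmo by 4.15 ± 0.58 on the log2 scale (26.4, 188 and 190 against 3.92 to 10.6 CPM, adjusted p = 0.00061). GolS4 was lower by -5.69 ± 0.81 (0.0727, 0.173 and 0.454 against 4.73 to 29.1 CPM, adjusted p = 0.00067). Both calls held in all 18 alternatives. GolS2 was lower in all Mmo than in all Mav libraries, at -1.54 ± 0.45 (adjusted p = 0.021 against a threshold of 0.01), and was called without M20s (-1.12). In all, 2 of 8 members were called, against 22% of all genes.

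In Msu at T2 the labelled groups cannot be compared as they stand. The 2 droughted libraries nearest to their own species, S2s and S4s, had GolS2 at 159 and 179 CPM, whereas S5s and S8s were at 3.23 and 4.74 CPM, next to controls S33c and S36c at 2.80 and 3.00 CPM. The third control, S28c, was at 13.8 CPM. GolS1 was at 72.7 CPM in S2s and 8.06 in S4s, around the other 2 droughted libraries (15.3 and 15.8 CPM) and the controls (5.40, 14.6 and 15.7 CPM). edgeR called 0 of 8 members and 0 of 20376 genes, 0% in all. No member and 265 genes had an unadjusted p under 0.05, and DESeq2 and limma called 0 genes as well. Leaving out S33c, S36c, S5s and S8s gave 0 calls among the members with 1 control against 2 droughted libraries. Set against the Msu T0 controls instead, S2s and S4s had higher GolS2 (log2 fold change 2.80), RS5 (1.74; 63.4 and 46.7 against 15.9 to 17.8 CPM) and SIP2 (2.50), and lower DIN10 (-2.14) and SIP1 (-1.84), all called, with 23% of all genes. With S5s and S8s included, RS5 was the 1 member called against T0 (1.43), with 8.74% of all genes. RS5 was at 35 to 39.8 CPM in the watered T2 controls too, S33c and S36c among them. Over those controls its log2 fold change in droughted plants was 0.30 ± 0.27. The T0 controls were sequenced in lane 3 and the droughted plants of T2 in lane 4. Against T0, the effects of drought, sampling point and lane therefore cannot be told apart.

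**Figure D3:**
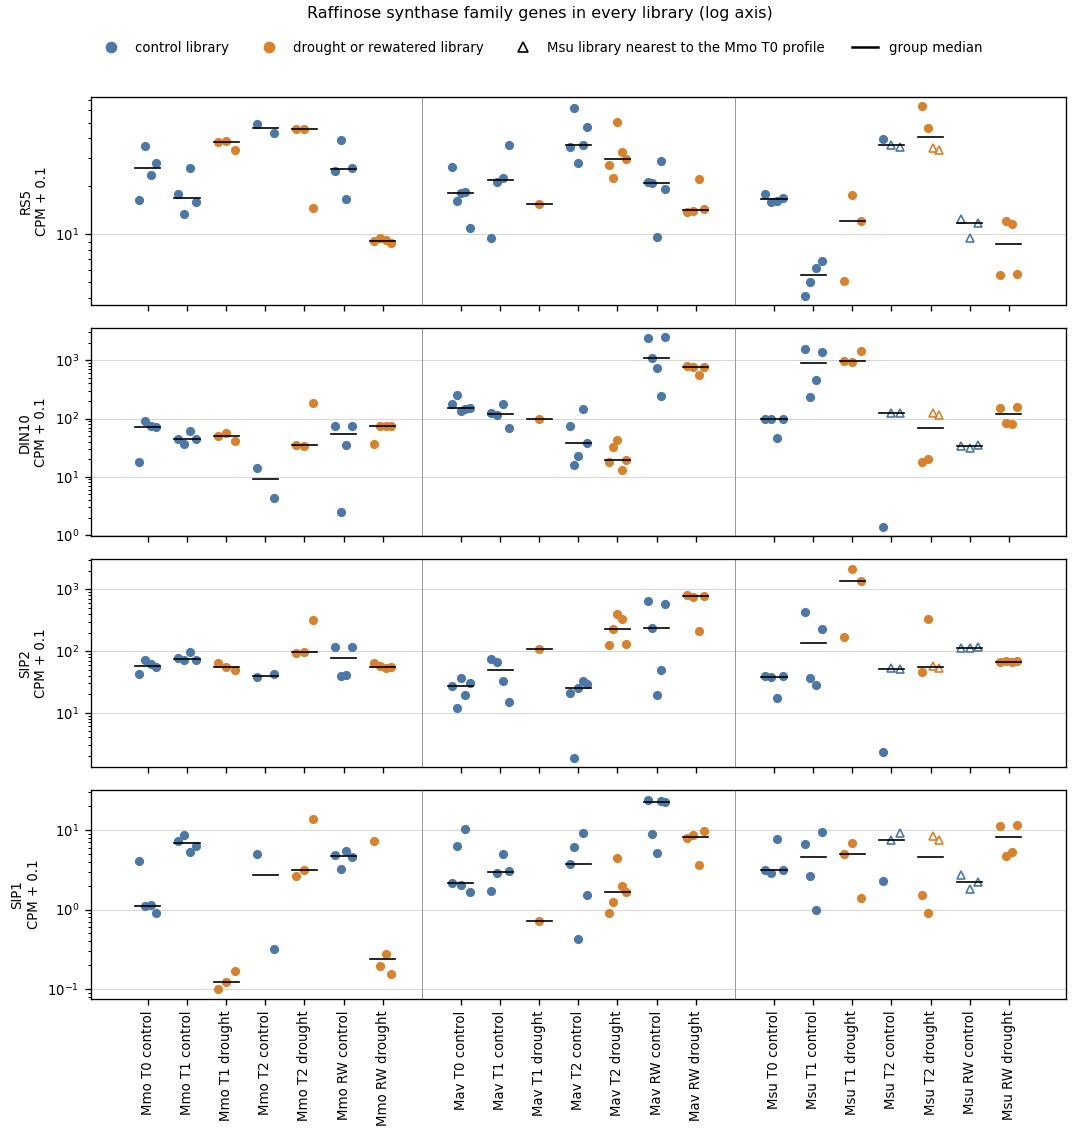
CPM of RS5, DIN10, SIP2 and SIP1 in every library by species, sampling point and treatment (log axes, 0.1 added); symbols are as in the plot of the galactinol synthases. DIN10 and SIP2 span over 2 orders of magnitude among the controls of Mav and Msu, RS5 keeps between 4.01 and 63.4 CPM, and SIP1 is near 0 in droughted Mmo at T1 and in 3 rewatered Mmo libraries.

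GolS1 was lower in rewatered plants than in droughted plants of T2 in all 3 species, but its median was lower at RW in the watered controls too. In Mmo it went from 26.4, 188 and 190 CPM to 3.66, 3.69, 3.98 and 5.49 CPM (log2 fold change -5.00 ± 0.66, adjusted p = 0.0022). In Mav it went from 3.92 to 10.6 CPM to between 0.220 and 0.393 CPM (-4.53 ± 0.39, adjusted p = 9.8e-06). In Msu it went from 8.06, 15.3, 15.8 and 72.7 CPM to 0.601, 0.966, 0.972 and 0.987 CPM (-5.03 ± 0.76, adjusted p = 0.0031). In no species did the droughted and rewatered libraries overlap. The Mmo controls were at 70.6 and 76.7 CPM at T2 and at 1.80, 3.06, 6.42 and 90.6 CPM at RW. Those of Mav went from 0.668 to 2.76 CPM to between 0 and 1.38 CPM, and those of Msu from 5.40, 14.6 and 15.7 to 2.77, 2.84 and 3.70 CPM. With the change of the controls subtracted, a test added after seeing the data, GolS1 was at -3.45 ± 1.77 in Mmo and -2.43 ± 1.14 in Mav (adjusted p = 0.32 and 0.11). It was still called in Msu (-3.10 ± 0.91, adjusted p = 0.037), where the RW controls are among the libraries nearest to Mmo. Droughted Mmo plants of T2 were all sequenced in lane 6 and rewatered ones in lane 7, so lane and sampling point cannot be told apart in that comparison.

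GolS2 was lower as well after rewatering in Mmo and Mav. The 4 rewatered Mmo libraries were at 4.39, 4.69, 4.96 and 5.76 CPM (log2 fold change -4.03 ± 0.50 from T2, adjusted p = 0.0017), and those of Mav at 0.792, 1.62, 1.72 and 1.85 CPM (-7.29 ± 0.33, adjusted p = 2.6e-07). The difference in Mav was 156.7-fold. Controls of Mmo went from 6.33 and 17.2 CPM at T2 to 1.75, 2.31, 3.12 and 24.0 CPM at RW, and those of Mav from 0.436 to 56.8 CPM to between 0.0745 and 4.92 CPM. Less that change, GolS2 of Mav was the 1 member called there, at -3.78 ± 1.18 (adjusted p = 0.020), and in Mmo it was at -3.42 ± 1.33 (adjusted p = 0.20). In Msu the rewatered libraries were at 7.01, 7.54, 12.9 and 13.7 CPM, below S2s and S4s of T2 but above S5s and S8s, and GolS2 was not called (-3.13 ± 1.22, adjusted p = 0.094). Without S5s it was (-3.54), and without S8s both GolS2 (-3.53) and GolS4 (-2.15) were. Without S5s and S8s together, GolS1, GolS2 (-4.11), GolS4 (-2.67) and RS5 were called lower than at T2 and DIN10 (2.56) and SIP1 (2.75) higher. In that fit 29.4% of all genes were called, against 17.1% with both libraries. Msu controls had GolS2 at 2.80 to 13.8 CPM at T2 and 0.287 to 0.531 CPM at RW, and with their change subtracted GolS2 was at 0.87 ± 1.63. GolS4 was lower after rewatering in Mav at -1.54 ± 0.45 on the log2 scale (adjusted p = 0.016), a call lost without A37s (29.1 CPM at T2), where it just missed the fold threshold (adjusted p = 0.015). Its controls went from 6.38 to 19.5 CPM to between 1.79 and 10.9 CPM, and less their change GolS4 was at -0.38 ± 0.67.

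RS5 was lower after rewatering in all 3 species, and its median was lower at RW in the controls as well. The rewatered Mmo libraries were at 8.70, 8.92, 9.08 and 9.35 CPM, below 14.4, 45.6 and 45.7 CPM at T2 (log2 fold change -1.97 ± 0.37, adjusted p = 0.0083). Those of Msu were at 5.42, 5.53, 11.6 and 12.1 CPM, below 33.7, 34.5, 46.7 and 63.4 CPM (-2.42 ± 0.36, adjusted p = 0.0029). In Mav, 13.8, 13.9, 14.3 and 22.2 CPM followed on 22.3 to 50.8 CPM, and the log2 fold change of -1.01 ± 0.25 just passed the fold threshold (adjusted p = 0.0070). It no longer passed that threshold without A37s (-0.80), A30s (-0.94), A38s (-0.94) or A42s (-0.96), where the adjusted p was up to 0.027. The controls went from 43.4 and 49.5 CPM to 16.6, 25, 26 and 39.2 CPM in Mmo, from 28.1 to 61.6 CPM to between 9.56 and 28.7 CPM in Mav, and from 35 to 39.8 CPM to between 9.35 and 12.4 CPM in Msu. With that change subtracted, the difference was -1.17 ± 0.54 in Mmo, 0.03 ± 0.40 in Mav and -0.69 ± 0.44 in Msu, and none was called (adjusted p = 0.28, 0.96 and 0.30).

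DIN10, SIP2 and SIP1 were higher in rewatered than in droughted plants of Mav, where the medians of the watered controls were higher at RW too, and SIP2 was lower in Mmo. The difference between the species was not tested. In Mav, DIN10 went from 13.1 to 42.7 CPM at T2 to 560, 773, 774 and 799 CPM, a log2 fold change of 4.87 ± 0.36 (adjusted p = 3.9e-06). SIP2 reached 210, 768, 773 and 811 CPM (1.41 ± 0.45, adjusted p = 0.023), but library A40s overlapped with T2, and the call was lost without A28s, A44s, A30s, A38s or A42s (adjusted p up to 0.064). SIP1 went in Mav from 0.799 to 4.29 CPM to 3.56, 7.74, 8.43 and 9.71 CPM (1.94 ± 0.47, adjusted p = 0.0065), with A40s inside the T2 range. The Mav controls went from 15.6 to 144 CPM to between 240 and 2453 CPM in DIN10, from 1.75 to 33 CPM to between 19.6 and 660 CPM in SIP2, and from 0.327 to 8.95 CPM to between 5.00 and 23.9 CPM in SIP1. Less the change of the controls, none of the 3 was called in Mav, with DIN10 at 0.32 ± 0.84, SIP2 at -2.39 ± 1.12 and SIP1 at -0.10 ± 0.94 (adjusted p = 0.80, 0.11 and 0.95). In Mmo, DIN10 was at 36.5, 75, 75.4 and 75.5 CPM, between the droughted libraries (log2 fold change -0.38 ± 0.63). SIP2 was there at 52.7, 55.1, 56.3 and 64.7 CPM (-1.59 ± 0.44, adjusted p = 0.034), a call lost without M20s, M26s, M27s or M28s (adjusted p up to 0.091). Its controls were at 37.3 and 42.2 CPM at T2 and 39.96 to 117 CPM at RW, and less their change SIP2 was at -2.58 ± 0.78 (adjusted p = 0.11). SIP1 of Mmo was at 0.0549, 0.0964 and 0.176 CPM in 3 rewatered libraries and at 7.08 in M25s. Without M25s it was called lower than at T2 (-5.85), and with it the log2 fold change was -1.79 ± 1.57.

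The members called from T2 to RW were 4 of 7 in Mmo (17.8% of all genes), 7 of 8 in Mav (33.4%) and 2 of 8 in Msu (17.1%). The median log2 fold changes over the members were -1.79, -0.59 and -1.35, against 0.00, 0.01 and -0.07 over all genes. These calls rest in part on near-identical libraries. With libraries of a noise ratio under 4 summed, 0 members were called in Mmo and 0 in Msu, as were 0 of 20971 and 0 of 21596 genes, with GolS1 at -4.53 and -5.23 (adjusted p = 0.14 in both). In Mav 3 members (GolS1, GolS2 and DIN10) and 19.9% of all genes were called. With the change of the controls subtracted, 0 members were called in Mmo (1.81% of all genes), 1 in Mav (26.8%) and 1 in Msu (13.5%). With both steps together no member was called in any species, with 0% of all genes in Mmo, 14.5% in Mav and 0% in Msu.

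**Figure D4:**
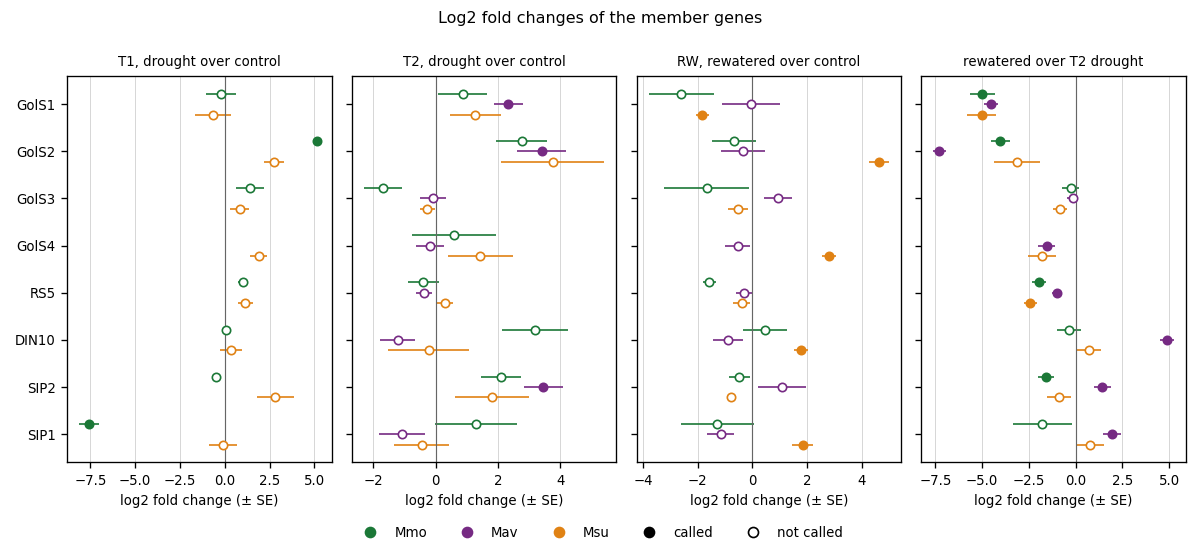
Log2 fold changes (points) with their SE (bars) of the 8 members that passed the filter on low counts, for drought over control at T1 and T2, rewatered over control at RW, and rewatered over droughted plants of T2; filled points were called. GolS2 lies right of 0 in every species tested at T1 and T2, GolS1, GolS2 and RS5 lie left of 0 in the recovery panel, and DIN10 of Mav lies at 4.87 there; the change of the watered controls between T2 and RW is not subtracted.

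Few genes were called between rewatered plants and watered controls of the same time in Mmo and Mav. In Mmo 0 of 7 members were called, against 0.18% of all genes. RS5 had the 1 unadjusted p under 0.05, being lower in all rewatered libraries (8.70 to 9.35 against 16.6, 25, 26 and 39.2 CPM). Its log2 fold change was -1.58 ± 0.24 (adjusted p = 0.057), and it was called without M22c (-1.34), M23c (-1.76) or M25s (-1.58), and by DESeq2, though not by limma. Without M25s, SIP1 was called too (-5.33), and the share of all genes called was 6.34%. That share was 1.91% without M22c, 2.14% without M23c and 5.53% with DESeq2. Mmo controls of RW were all sequenced in lane 6 and the rewatered plants in lane 7, so lane and treatment cannot be told apart there. Control M22c had GolS1 at 90.6, GolS2 at 24.0 and GolS3 at 78.5 CPM, beside at most 6.42, 3.12 and 6.90 CPM in the other 3. In Mav 0 of 8 members were called, against 0.265% of all genes. DESeq2 and limma called none of these members either, with 4.12% of all genes called by DESeq2. SIP1 had the 1 unadjusted p under 0.05, and GolS3 was called higher without A6c (1.62), with 2.78% of all genes.

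In Mav the controls themselves moved between sampling points. DIN10 was at 137 to 256 CPM in the T0 controls and at 240, 732, 1073, 2364 and 2453 CPM in the RW controls, and SIP2 at 11.9 to 37 and then 19.6, 49.5, 233, 575 and 660 CPM. Rewatered Mav plants were above T0 in DIN10 (log2 fold change 2.07) and SIP2 (4.68), both called, with 9.64% of all genes. Against RW controls DIN10 was at -0.90 ± 0.56 and SIP2 at 1.08 ± 0.87. The change of the controls from T0 to RW was not tested. DIN10 also reached 1362 and 1547 CPM in Msu controls S35c and S18c at T1. In Mmo, rewatered plants were below T0 in GolS1 (-2.81), GolS3 (-1.81) and RS5 (-1.53), all called, with 5.05% of all genes. The interaction between Mmo and Mav at RW had 0 of 8 members called, against 1.81% of all genes, with 1 unadjusted p under 0.05 (RS5, -1.27 ± 0.40), which DESeq2 called and limma did not. RS5 was called without A6c (-1.45) and SIP1 without M25s (-4.15), with 4.84% and 6.96% of all genes. With every library kept, DESeq2 called 6.63% of all genes, and 4535 of 21163 genes had an unadjusted p under 0.05 with edgeR. With T0 controls of both species, GolS1 (-2.92), RS5 (-1.36), DIN10 (-2.01) and SIP2 (-4.69) were called lower in Mmo, with 10.7% of all genes.

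In Msu at RW, 5 of 8 members were called against 31.6% of all genes, but all 3 controls were of the libraries with a profile nearest to Mmo. GolS2 was at 0.287, 0.377 and 0.531 CPM in these controls and 7.01 to 13.7 CPM in rewatered plants (log2 fold change 4.62 ± 0.37, adjusted p = 1.7e-05). GolS4 (2.79), DIN10 (1.78) and SIP1 (1.85) were also called higher and GolS1 lower (-1.84). Against Msu T0 controls, GolS2 (-1.26) and GolS4 (-2.65) were called in the opposite direction, and GolS3 was called lower (-3.81), with 11.9% of all genes.

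Rewatered Mmo and Mav leaves differed in 5 of 8 members, against 29.8% of all genes. GolS1 (3.66 to 5.49 against 0.220 to 0.393 CPM; log2 fold change 3.69 ± 0.26) and GolS2 (4.39 to 5.76 against 0.792 to 1.85 CPM; 1.72 ± 0.28) were higher in Mmo (adjusted p = 1.5e-05 and 0.00096). GolS4 (-6.58 ± 0.27), DIN10 (-3.48 ± 0.27) and SIP2 (-3.50 ± 0.41) were lower there (adjusted p = 1.5e-06, 2.3e-05 and 0.00017). SIP1 was lower without M25s (-6.05). With libraries of a noise ratio under 4 summed none was called at 0.01, and neither was any of 21464 genes, with adjusted p of 0.025 for GolS4 and 0.037 for GolS1.

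The substrates of galactinol synthesis were followed with 24 further pathway genes, for other galactinol synthases, myo-inositol synthesis, UDP-galactose supply, alpha-galactosidases, and galactose and myo-inositol use. At T2, 5 of the 19 tested rose and 1 fell in Mav (median log2 fold change 0.03 against -0.01 over all genes), 2 of 19 rose and 1 fell in Mmo (median 0.63 against 0.02), and 0 of 18 were called in Msu. The shares of all genes called there were 28.2% in Mav, 4.49% in Mmo and 0% in Msu. AT4G23920, of the list of UDP-galactose supply, rose in Mav (4.35 to 14.9 against 38.6 to 89.2 CPM; log2 fold change 2.61 ± 0.37) and in Mmo (8.99 and 11.5 against 44.2, 44.8 and 50.2 CPM; 2.17 ± 0.21). Their adjusted p were 0.00024 and 0.013. AT3G56310, of the list of alpha-galactosidases, rose in both as well (49.9 to 63.2 against 164.7 to 338.3 CPM in Mav, 66.2 and 69.8 against 185.0, 189.0 and 216.5 CPM in Mmo). Its log2 fold changes were 1.99 ± 0.23 and 1.52 ± 0.20, with adjusted p of 5.8e-05 and 0.024.

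At T0, 3 of 18 pathway genes tested were higher and 2 lower in Mmo than in Mav, against 24.1% of all genes. MIPS1 (AT4G39800) and MIPS2 (AT2G22240), which make the inositol phosphate that becomes myo-inositol, were at 223.2 to 401.4 and 50.9 to 160.8 CPM in Mmo. In Mav they were at 15.9 to 90.1 and 12.4 to 34.3 CPM, with log2 fold changes of 2.84 ± 0.41 and 2.64 ± 0.43 (adjusted p = 0.000385 and 0.00078). The alpha-galactosidase AGAL1 (AT5G08380) was higher in Mmo by 2.25 ± 0.27 and AGAL2 (AT5G08370) lower by -3.82 ± 0.55. The epimerase UGE5 (AT4G10960) was lower by -2.43 ± 0.38 (adjusted p = 0.00057). From T2 to RW, 6 of 20 pathway genes were called lower in Mmo, 6 of 19 in Mav and 5 of 18 in Msu, while 1, 6 and 1 were called higher. The shares of all genes were 17.8%, 33.4% and 17.1%, and with libraries of a noise ratio under 4 summed no gene was called in Mmo or Msu. MIPS1 was lower in each species (log2 fold changes of -4.84, -6.08 and -5.92 in Mmo, Mav and Msu), as were MIPS2 (-5.78, -3.12 and -7.02) and AT4G23920 (-2.39, -2.56 and -3.21). MIPS1 was lower at RW in the controls too, with medians of 832.9 and 97.5 CPM in Mmo, 421.9 and 32 in Mav and 207.6 and 37.01 in Msu at T2 and RW. For no pathway gene was the change of the controls subtracted, so rewatering and sampling point cannot be told apart in these differences.

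The genes with patterns most like those of 4 members were taken from 18192 genes, by the correlation of log2 (CPM + 1) group means centred within each species, over the 21 groups. The groups share libraries' species and depth, and r is a description. For GolS2 they were AT3G19290 (r = 0.94), AT4G12580 (0.94) and AT4G26455 (0.93), and for GolS1 AT1G61210 (0.92), AT2G13810 (0.91) and AT4G30210 (0.91). For DIN10 they were AT4G35840 (0.94), AT4G27470 (0.90) and AT5G08520 (0.89), and for SIP2 AT1G52720 (0.87), AT4G10610 (0.87) and AT4G01000 (0.86). Among the members, GolS1 was most like RS5 (r = 0.79) and least like DIN10 (r = -0.62).

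Markers of other cell types moved with some of these groups. The phloem markers, 3 in all, summed to 394.0 to 510.7 CPM in droughted Mmo at T1 against 301.8 to 375.8 in controls, and to 730.3 to 854.5 against 441.6 to 555.2 CPM in Msu. At T2 they overlapped between droughted plants and controls of Mav (544.9 to 710.2 within 383.2 to 746.5 CPM) and of Msu, and from T2 to RW they went from 802.3 to 893.8 to between 333.8 and 502.3 CPM in droughted Msu. Mesophyll markers were lower in droughted plants than in every control at T2, with 8488 to 13020 against 18280 to 30790 CPM in Mav, 6949 to 19560 against 24270 to 25660 in Mmo and 19360 to 24940 against 25200 to 38290 in Msu. At RW they were lower in rewatered Mav (15690 to 17410 against 19000 to 26880 CPM) and higher in rewatered Msu (20180 to 20960 against 10060 to 11740 CPM) than in controls. Root markers were lower under drought in Mmo at T1 (0.162 to 0.314 against 5.1 to 7.21 CPM) and T2 (0.909 to 1.11 against 2.32 to 2.44 CPM) and in Mav at T2 (0.0799 to 0.203 against 0.378 to 1.60 CPM). Guard cell markers went from 22.6 to 45.1 CPM at T2 to between 15.9 and 20.1 CPM in rewatered Mmo. The 4 seed markers summed to at most 1.66 CPM in Mav but reached 114.5 CPM in Mmo T1 controls and 92.6 CPM in Mmo RW controls, and the 3 flower markers reached 35.3 CPM in Mav RW controls. Their part in the results was not tested, and in bulk leaf RNA more cells of a type and more RNA per cell cannot be told apart.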

How the data were processed

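RNA of mature leaves was sequenced on an Illumina HiSeq. The authors' provider aligned the reads with BLAT, in protein space, to a reduced collection of TAIR 10 coding sequences, and kept the best-scoring mappings. The handling of ties, trimming and strand are not given in the sources used here. The deposited files give estimated counts, in whole numbers without normalization, and TPM values, scaled by the authors to a fixed sum per library, for 33602 features.

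Here the counts were fitted with edgeR 4.0.16 (R 4.3.3): filterByExpr, TMM scaling, the quasi-likelihood F-test on the libraries of the groups compared, and Benjamini-Hochberg adjustment over all genes tested. SE is the log2 fold change over the square root of F. A call needed a log2 fold change beyond 1 in either direction, with an adjusted p below 0.05 within species and for interactions or below 0.01 between species. CPM values are scaled with TMM over all 78 libraries, and TPM served for comparisons between genes. Every library stayed in the group that its label gives. The study itself used DESeq2.

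The members, lists and tests were chosen with earlier results of these data known. Besides the 9 members, the text names pathway genes called at T2 in at least 2 species or at T0 between Mmo and Mav, and the 3 genes most alike for each of 4 members. The genes most alike are given without names, since the sources used here do not name them. Pathway genes AT4G23920 and AT3G56310 are given by identifier and list. Alternatives were DESeq2 1.42.0, limma 3.58.1 on log2(TPM + 1) and log2(TPM + 0.1), RLE size factors, no filter, the other p threshold, 1 fit over all libraries, near-identical libraries summed, other controls, lane 7 left out, each library left out, and a replicate block. Summing at a noise ratio under 10, the fits without S33c, S36c, S5s or S8s, the interactions with T0 controls, and the recovery comparisons less the change of the watered controls were added after seeing the data. The fitting functions were tested on simulated data. Counting intervals cover counting error only. No sequences are shown.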

Additional observations from a re-analysis of the deposited data

Results flagged for a closer look

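In groups of 4 or 5 libraries, 26 of 104 sets of values (1 member in 1 group) held a library far from the others by Dixon's criterion, which chance alone meets in about 1 set in 20. Near-identical libraries make the rest of a group look tight, and their part in these values was not tested.

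Library S42 of the Msu T0 controls stood apart in 6 members. It was high in GolS1 (12.7 CPM against 2.71 to 3.52) and SIP1 (7.61 against 2.77 to 3.08), and low in GolS2 (15.9 against 26.6 to 28.1), GolS3 (0.938 against 30.2 to 32.4), DIN10 (45.4 against 96.2 to 99.6) and SIP2 (17.4 against 38.2 to 39.99).

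Rewatered Mav library A40s was low in DIN10 (560.3 CPM against 773.2 to 799.3), SIP2 (209.5 against 767.9 to 811.1) and GolS3 (6.19 against 12.2 to 13.1), and high in RS5 (22.2 against 13.8 to 14.4). Mmo control M22c of RW was high in GolS1 (90.6 against 1.80 to 6.42), GolS2 (24.0 against 1.75 to 3.12) and GolS3 (78.5 against 0.132 to 6.90). Mmo control M6c of T1 was low in GolS1 (3.24 against 74.5 to 80.7) and GolS3 (0.274 against 10.6 to 11.5). Mav control A6c of RW was high in GolS1 (1.38 against 0 to 0.197) and GolS3 (14.1 against 1.97 to 4.92). Rewatered Mmo library M25s was low in DIN10 (36.5 against 75 to 75.5) and high in SIP1 (7.08 against 0.0549 to 0.176).

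Single members stood apart in 7 further libraries. In Mmo at T0 these were GolS1 in M1c (9.00 against 35.1 to 37.3) and SIP1 in M12c (3.92 against 0.810 to 1.03). In Mav they were GolS2 in A4 of T0 (6.11 against 0.119 to 1.82), GolS3 in control A22c of T2 (33.6 against 7.32 to 8.55) and GolS4 in droughted A37s of T2 (29.1 against 4.73 to 11.6). In droughted Msu of T2 they were GolS1 in S2s (72.7 against 8.06 to 15.8) and SIP2 in S4s (329.2 against 46.4 to 56.6).

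Some drought responses were called different between species by an interaction test (edgeR quasi-likelihood, adjusted p under 0.05). At T2 between Mmo and Mav this was DIN10 (4.42 on the log2 scale). At T1 between Mmo and Msu these were GolS2 (2.48), GolS4 (-3.76) and SIP1 (-7.40). The call of DIN10 was lost in 17 of 26 alternatives, that of GolS2 in 11 of 23, that of GolS4 in 6 of 23 and that of SIP1 in 1 of 23. GolS4 had 8 counts in all over the droughted Mmo libraries of T1.

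The 1 droughted Mav library of T1, which entered no test, lay above all 4 controls in GolS1 (3.51 CPM against 0.195 to 1.50), GolS2 (76.2 against 0.687 to 11.8) and SIP2 (108.5 against 14.6 to 74.2).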

How the results depend on the processing

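Over 19 comparisons, 149 member results had a test and 41 were called. Of 795 alternatives for the called results, 638 kept the call, 149 lost it with the sign unchanged and 8 had the opposite sign. Called in the opposite direction were only GolS2 and GolS4 in Msu at RW against T0 controls. The other changes of sign were of RS5, SIP2 and SIP1 in Mav from T2 to RW less the change of the controls, where none was called. Under every alternative, 9 results were called. Alternatives for results not called gave a call in 97 cases.

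The number of members called moved as follows, where the cause was not tested unless fewer libraries are named. Summing libraries with a noise ratio under 4 leaves fewer libraries. From T2 to RW it gave 0 in Mmo and Msu (0% of all genes in both) and 3 of 7 in Mav (19.9%). It gave 0 of 5 between rewatered Mmo and Mav (0%). For Msu at T0 it gave 1 of 2 against Mmo (4.51%) and 1 of 2 against Mav (0.414%). It gave 1 of 3 for the T1 interaction (1.76%) and 0 of 1 for the T2 interaction (1.58%). At a ratio under 10 the T1 interaction and Mmo at T1 had 0 (0.0133% and 0% of all genes) and Msu at RW 3 of 5 (15.3%). DESeq2 called 2 in Msu at T1 (6.69% of all genes), 4 in Mmo at T2 (12.4%) and 1 in Mmo at RW (5.53%). It also called 1 for the RW interaction (6.63%), 4 in Msu from T2 to RW (22.5%) and 4 between Mmo and Mav at T2 (29.9%). limma called 0 for the T2 interaction with either pseudocount (4.93% of all genes with 1 and 4.74% with 0.1). It called 4 between Mmo and Msu at T0 with 0.1 (25.5%). The other p threshold gave 4 between Mmo and Mav at T2 (32.2% of all genes), 1 for the T1 interaction (1.81%) and 0 for the T2 interaction (1.05%). One fit over all libraries gave 2 in Msu at T1 (5.14% of all genes), 2 in Mmo at RW (5.03%) and 3 in Msu at RW (23.3%). It also gave 5 in Msu from T2 to RW (21.3%) and 1 between Mmo and Msu at T0 (23.7%). No filter gave 1 in Msu at T1 (1.29% of all genes). Without lane 7 there were 2 for the T2 interaction (5.91% of all genes) and 1 between Mav and Msu at T0 (5.37%). At T2 the T0 controls gave 2 in Mmo (12.7% of all genes) and 1 in Msu (8.74%), or 5 in Msu without S5s and S8s (23%). At RW the T0 controls gave 3 in Mmo (5.05%) and 2 in Mav (9.64%). T0 controls gave 4 for each of the T2 and RW interactions (20% and 10.7%). They reversed DIN10 in Mav at RW (2.07) and in the RW interaction (-2.01), and in Msu at RW GolS2 (-1.26), GolS4 (-2.65) and SIP2 (1.00). Without S5s and S8s, 6 were called in Msu from T2 to RW, with 29.4% of all genes. Subtracting the change of the watered controls from T2 to RW gave 0 calls in Mmo (1.81% of all genes), 1 in Mav (26.8%) and 1 in Msu (13.5%). With near-identical libraries summed too there were 0 in each (0%, 14.5% and 0% of all genes). In Mav it changed the sign of RS5 (0.033), SIP2 (-2.39) and SIP1 (-0.10), or 0.15, -2.91 and -0.49 with libraries summed. None of these was called there. Without S33c, S36c, S5s and S8s it gave 6 calls in Msu, STS among them, and reversed GolS4 (1.53) and DIN10 (-2.12), but there the 1 control left at T2 is set against RW controls nearest to Mmo.

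Leaving out each library in turn gave 2 to 4 calls in Mmo and 0 to 1 in Msu at T1, 1 to 4 for their interaction, 0 to 4 in Mmo at T2, 0 to 2 for the T2 interaction, 0 to 2 in Mmo and 0 to 1 in Mav at RW, 0 to 1 for the RW interaction, and 2 to 4 in Msu from T2 to RW. At T0 it gave 1 to 3 between Mmo and Msu and 1 to 2 between Mav and Msu. Over the same fits the share of all genes called moved too. At T1 it was 11.6% to 20.9% in Mmo, 0% to 2.61% in Msu and 2.78% to 11% for the interaction. At T2 it was 0% to 12.9% in Mmo and 0.614% to 6.47% for the interaction. At RW it was 0% to 6.34% in Mmo, 0.02% to 4.73% in Mav and 0.149% to 6.96% for the interaction. From T2 to RW in Msu it was 11.9% to 19.3%. At T0 it was 19.9% to 28.3% for Mmo against Msu and 2.95% to 11.3% for Mav against Msu. Libraries named S2s and S4s occur at both T2 and RW in Msu, but the labels do not say that they are the same plants. A replicate block on those names gave 6 calls in place of 2, with 19.7% of all genes in place of 17.1%. With 2 such pairs the pairing could not be checked further.

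At these depths the lowest members rest on few reads, and STS could not be compared in the 19 comparisons.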
